A study of Mus musculus with 10 samples.

Results

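The genes described are 40 genes of DNA replication and mitosis, named in a list and matched by gene symbol in 1 table of islet transcript levels that holds 47340 genes. All 40 were found in the table, and none was at 0 in any library. By role, 14 belong to DNA replication and the entry into S phase, 12 are mitotic regulators, 9 act on chromosomes and the spindle, and 5 act in cytokinesis; the latter 26 are called mitosis genes below. The table comes from RNASeq of pancreatic islets of 5 floxed control mice (FL) and 5 βFIT2KO mice (KO), all male, 12 wk old and fed chow, with 1 library per mouse. FL mice are littermates with both copies of Fitm2, the gene of the lipid droplet protein FIT2, flanked by loxP sites (Fitm2 fl/fl), although the genotype label of their samples reads wild type. KO mice carry the same floxed gene and a Cre recombinase transgene of the line B6.Cg-Tg(Ins2-cre)25Mgn/J, in which a rat insulin promoter drives Cre in β cells. Islets of mice with the Cre transgene alone were not analysed here, so deletion of Fitm2 and presence of Cre cannot be told apart. Whole islets were kept overnight in CMRL medium before RNA was taken, so each library holds β cells together with the other cells of an islet. The question is whether transcripts that mark dividing cells differ between KO and FL islets.

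Before division a cell copies its DNA. E-type cyclins (Ccne1, Ccne2) drive the entry into S phase, the MCM2 to MCM7 proteins form the ring-shaped helicase that opens DNA at origins, PCNA is the clamp that holds DNA polymerases on DNA, and Rrm1, Rrm2, Tyms and Tk1 encode enzymes that supply nucleotides. In mitosis CDK1 with cyclin B and the Aurora and Polo kinases condense chromosomes and build the spindle. The checkpoint proteins BUB1 and BUBR1 (Bub1b) hold back separation until the anaphase-promoting complex is switched on by CDC20. PRC1 and the centralspindlin proteins KIF23 and RACGAP1 direct the final cleavage of the cell. Most genes of the second set are transcribed in G2 and M phase, whereas genes of the first set rise earlier, in late G1 and S phase. β cells of an adult mouse seldom divide, and transcripts such as Mki67, which encodes the proliferation antigen Ki-67, are commonly used to find the few that do.

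The split between both sets is visible in promoter sequence. Promoters of 300 bases, from 250 bases before to 50 bases after the gene start, were found in RefSeq (GRCm38.p6) for 33 of the 40 genes; Ccne2, Mcm4, Ccna2, Aurkb, Foxm1, Tpx2 and Kif20a were not matched. They were searched on both strands for the letters TTTGAA (the cell cycle homology region, or CHR, bound by MuvB complexes), for CCAAT (the CCAAT box, bound by NF-Y) and for any of TTTCCCGC, TTTCGCGC, TTTGCCGC and TTTGGCGC (E2F sites). None of these strings contains another. TTTGAA occurred in 16 of 21 mitosis promoters (76.2%), in 1 of 12 replication promoters (8.33%) and in 17.9% of all 32851 promoters. CCAAT occurred in 90.5% of mitosis promoters, in 75% of replication promoters and in 37.4% of all promoters. The E2F letters occurred in 5 of 12 replication promoters (41.7%), in 1 of 21 mitosis promoters (4.76%) and in 2.26% of all promoters. The replication promoter with TTTGAA was that of Mcm2, and the mitosis promoter with E2F letters was that of Cdk1.

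The promoters of the 3 genes that differed between KO and FL islets, and of Cdk1, which holds all 3 kinds of match, are shown 5′ to 3′ on the strand of the gene. Capitals mark every match, with ATTGG as the CCAAT box read on the opposite strand. Mcm2 (chr6:88898731-88899030, minus strand) and Racgap1 (chr15:99651607-99651906, minus strand) hold 1 TTTGAA and 1 CCAAT match each, Ccne1 (chr7:38107441-38107740, minus strand) holds no match, and Cdk1 (chr10:69352863-69353162, minus strand) holds 2 TTTGAA, 3 CCAAT and 1 E2F match.
Mcm2: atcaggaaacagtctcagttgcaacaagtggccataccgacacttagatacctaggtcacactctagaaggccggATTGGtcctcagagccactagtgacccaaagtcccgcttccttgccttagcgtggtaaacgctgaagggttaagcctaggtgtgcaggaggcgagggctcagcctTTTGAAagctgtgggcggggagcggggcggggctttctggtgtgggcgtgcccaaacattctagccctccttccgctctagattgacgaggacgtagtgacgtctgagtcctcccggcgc
Ccne1: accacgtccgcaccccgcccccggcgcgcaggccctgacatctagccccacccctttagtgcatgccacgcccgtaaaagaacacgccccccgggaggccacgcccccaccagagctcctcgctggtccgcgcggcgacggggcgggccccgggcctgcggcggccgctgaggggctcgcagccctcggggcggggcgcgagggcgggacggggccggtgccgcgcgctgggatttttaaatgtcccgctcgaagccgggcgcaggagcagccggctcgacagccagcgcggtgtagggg
Racgap1: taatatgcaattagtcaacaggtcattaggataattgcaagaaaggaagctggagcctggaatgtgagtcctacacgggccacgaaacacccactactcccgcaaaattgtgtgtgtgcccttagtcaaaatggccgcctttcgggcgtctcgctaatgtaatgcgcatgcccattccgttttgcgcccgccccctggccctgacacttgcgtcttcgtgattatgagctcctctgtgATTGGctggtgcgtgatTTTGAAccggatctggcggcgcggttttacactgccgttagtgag
Cdk1: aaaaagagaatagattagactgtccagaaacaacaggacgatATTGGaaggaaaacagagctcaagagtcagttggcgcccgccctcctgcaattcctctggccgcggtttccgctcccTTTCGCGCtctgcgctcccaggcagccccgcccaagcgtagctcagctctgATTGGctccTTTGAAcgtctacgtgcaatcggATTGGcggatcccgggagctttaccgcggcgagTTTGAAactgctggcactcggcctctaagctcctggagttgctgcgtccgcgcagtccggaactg
A match is a run of letters and was not tested as a binding site in islets. Only these exact letters within this window were searched, so a promoter without a match may still hold a site.

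Levels are in FPKM, fragments scaled by exon length and by library size, as the authors deposited them, so levels of different genes can be set side by side. A sum of FPKM was between 627084 and 675470 in every library. The number of reads is not in the table, but values of weakly expressed genes move in steps of 1 read, and by these steps FL 1 was the shallowest library, the remaining FL libraries being 1.41 to 2.4 times and the KO libraries 1.51 to 2.05 times as deep. Libraries were compared with limma on log2(FPKM + 1) over 13065 genes, those whose mean reached 1 FPKM in either group, and a gene was called at an adjusted p (Benjamini-Hochberg) of at most 0.05. Fold changes are on this scale unless stated, on which changes of weakly expressed genes come out too small. The targeted gene Fitm2 was at 15.5 to 37.1 FPKM in FL and 4.3 to 9.13 FPKM in KO islets (log2 fold change −1.58, SE 0.28, adjusted p = 0.00228 from limma), with every KO library below every FL library. Of all calls 35.5% were higher in KO, a share that became 52.6% with median-ratio scaling, 47.6% with TPM, 47.1% with quantile normalization and 69% with upper-quartile scaling, the last of which moved the median of all genes by 0.10 (log2).

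Most of these genes were expressed at low levels in 12-wk islets, and the replication genes stood well above the mitosis genes. Over the 10 libraries 18 of 26 mitosis genes but 2 of 14 replication genes had a mean under 1 FPKM. The summed level was 102 ± 2.97 FPKM for the 14 replication genes in FL islets, against 10.6 ± 4.05 FPKM for the 12 mitotic regulators, 5.76 ± 1.48 FPKM for the 9 chromosome and spindle genes and 15.7 ± 1.75 FPKM for the 5 cytokinesis genes (SD, n = 5). Pcna was the highest member at 31.3 ± 1.37 FPKM in FL (SD, n = 5), and 1 mitosis gene, Racgap1, was among the 8 members with a mean of at least 5 FPKM. At the other end Tk1, the salvage thymidine kinase, was at 0.0985 ± 0.0708 (FL) and 0.126 ± 0.0992 FPKM (KO; SD, n = 5), which corresponds to about 1 to 15 reads a library.

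Of the 40 genes, 21 passed the filter of 1 FPKM and 19 did not. In KO islets 3 of the 21 rose, Mcm2, Ccne1 and Racgap1, and 0 fell. That is 14.3% of the tested members, beside 25.5% of all tested genes called in either direction, 9.05% called higher and 16.5% called lower. The median log2 fold change of the 21 was 0.03, beside −0.06 for all tested genes, and 11 of the 21 were above 0. At an unadjusted p under 0.05 from limma, 5 members were higher (12.9% of all tested genes were) and 1 was lower, Prc1 (24.9% of all tested genes were). By the exact permutation test at p under 0.05, 7 of the 40 were higher: Mcm2, Ccne1, Racgap1, Birc5, Mcm5, Pcna and Plk1. The 2 that were lower were Rrm1 and Ccnb1. Of all 24792 genes above 0 in at least 1 library 9.2% were higher and 13.8% were lower by this test. Bub1b passed the filter through its KO mean alone (0.814 ± 0.392 FPKM in FL, 1.04 ± 0.506 FPKM in KO; SD, n = 5) and was not called. In each of the 3 called genes every KO library was above every FL library, as in 6.67% of all tested genes. Since p-values are over 5 mice a group, they set the difference of the groups against the spread between mice. In limma this spread is partly drawn from other genes.

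**Figure D1:**
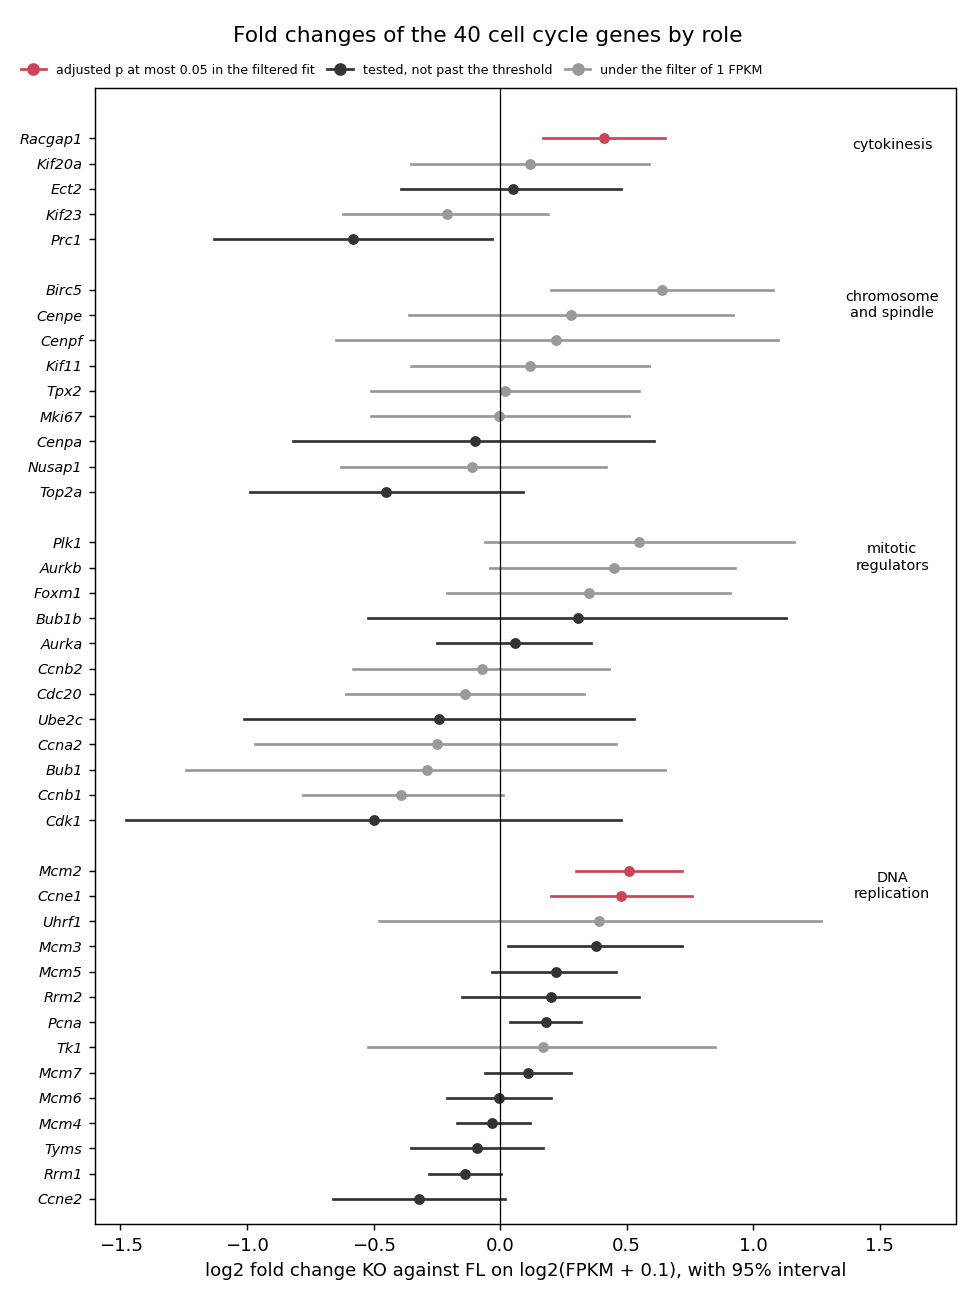
Log2 fold changes of the 40 genes, KO against FL, ordered within each role. Points are estimates on log2(FPKM + 0.1) from a fit without a filter and lines are 95% intervals; red marks Mcm2, Ccne1 and Racgap1, called in the filtered fit on log2(FPKM + 1), black the other 18 tested genes and grey the 19 genes under the filter.

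Mcm2, a subunit of the replicative helicase and an acceptor of histones at the fork, gave the clearest difference. The gene (ENSMUSG00000002870.8) spans chr6:88883474-88898780 on the minus strand (GRCm38, GENCODE M21), and no other annotated gene overlaps it. Across replicates 1 to 5 it was at 11.2, 10.4, 9.43, 7.82 and 10.6 FPKM in FL libraries and 12.9, 13.7, 13.5, 14.9 and 15.3 FPKM in KO libraries. Every KO library was above every FL library. The means were 9.91 ± 1.33 and 14.1 ± 1.03 FPKM (SD, n = 5), a ratio of 1.42, and the log2 fold change was 0.47 (95% interval 0.28 to 0.66, adjusted p = 0.00295 from limma). Each value rests on about 810 to 2311 reads. Mcm2 was called under each of 23 alternative settings at the same threshold, with log2 fold changes from 0.4 to 0.58. Relative to the median of all genes it was 0.53 to 0.54 under all 5 scalings.

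The other subunits of the same ring did not pass limma in the reported fit. Mcm4 was at 6.29 ± 0.383 (FL) and 6.18 ± 0.384 FPKM (KO), and Mcm6 at 11.5 ± 1.09 and 11.5 ± 1.3 FPKM (SD, n = 5). Mcm7 was at 7.51 ± 0.707 and 8.09 ± 0.624 FPKM and Mcm5 at 1.39 ± 0.109 and 1.63 ± 0.161 FPKM (SD, n = 5). None of these 4 passed limma (adjusted p from 0.206 to 0.99), with 95% intervals of the log2 fold change from −0.15 to 0.10 for Mcm4, −0.19 to 0.19 for Mcm6, −0.06 to 0.25 for Mcm7 and −0.03 to 0.31 for Mcm5. For Mcm5 the exact permutation test gave p = 0.0317 (two-sided, unadjusted), with KO higher. Mcm7 overlaps 5 other annotated genes, among them Cops6 and Ap4m1 on the opposite strand. Mcm3 was at 4.05, 2.37, 3, 2.46 and 2.31 FPKM in FL libraries and 3.6, 3.54, 3.28, 4.32 and 3.49 FPKM in KO libraries. Apart from FL 1 all KO values of Mcm3 were above the FL values, and its adjusted p was 0.0957 with FL 1 and 0.0104 without it (limma). Within a library, the log2 ratio of Mcm2 to the mean log2 level of Mcm3 to Mcm7 was 0.80 to 1.29 in FL and 1.33 to 1.61 in KO islets, without overlap. This ratio, and the ratios given below, were chosen after the values had been seen and are given without a test.

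**Figure D2:**
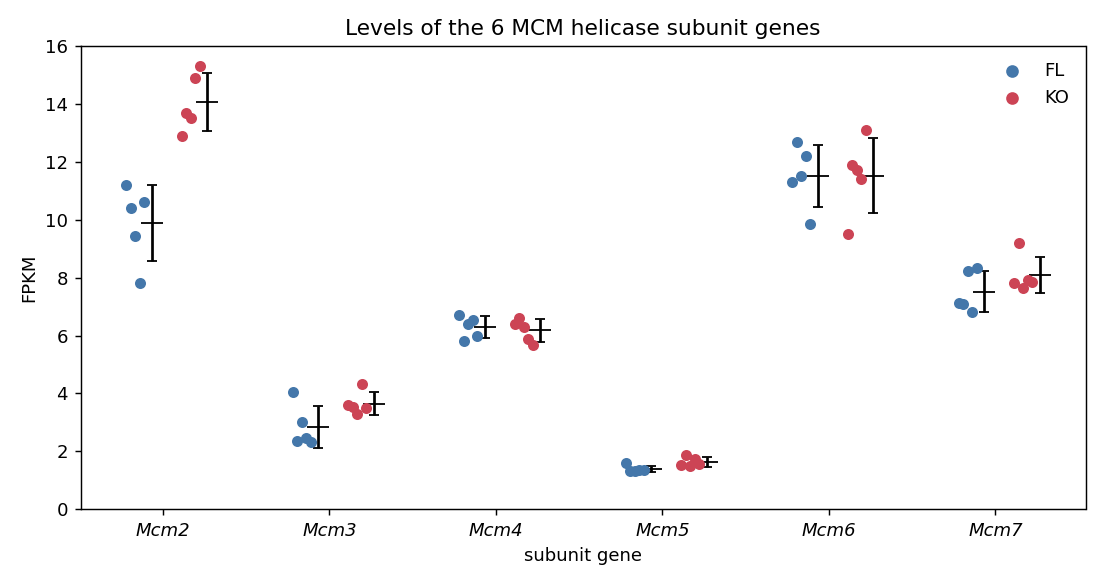
Levels of the 6 MCM helicase subunit genes, in FPKM, in each of 5 FL (blue) and 5 KO (red) libraries, with the mean and SD of each group as black bars. The KO values of Mcm2 (12.9 to 15.3 FPKM) lie above its FL values (7.82 to 11.2 FPKM), while the groups overlap for the other subunits.

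Ccne1 and Ccne2 encode the E-type cyclins, which activate CDK2 at the start of S phase. Ccne1 (ENSMUSG00000002068.16, chr7:38097984-38107534, minus strand) was at 2.08, 2.62, 2.63, 1.99 and 2.6 FPKM in FL libraries and 3.66, 3.39, 3.87, 3.28 and 2.68 FPKM in KO libraries. Every KO library was above every FL library, by a small margin for KO 5. The means were 2.39 ± 0.318 and 3.38 ± 0.451 FPKM (SD, n = 5), a ratio of 1.41, and the log2 fold change was 0.37 (95% interval 0.16 to 0.58, adjusted p = 0.0157 from limma). Ccne1 was called under each of 23 alternative settings at the same threshold (adjusted p from 0.00596 to 0.0457 from limma). In the reported fit it did not reach a stricter threshold of 0.01. Ccne2 was at 4.55 ± 0.733 (FL) and 3.65 ± 0.759 FPKM (KO; SD, n = 5; log2 fold change −0.26, adjusted p = 0.143 from limma), and its groups overlapped. Without KO 3 its adjusted p was 0.0385. The log2 ratio of Ccne1 to Ccne2 was between −1.20 and −0.62 in FL and between −0.37 and 0.24 in KO islets, so that Ccne2 was above Ccne1 in every FL library and on either side of it in KO libraries. Ints8 overlaps Ccne2 on the opposite strand, and no annotated gene overlaps Ccne1.

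Pcna was at 30.3, 32.8, 32.2, 29.5 and 31.7 FPKM in FL libraries and 38.7, 35.4, 32.1, 38.8 and 32.6 FPKM in KO libraries. KO 1, KO 2 and KO 4 were above all FL libraries and the other 2 within the FL range. Its log2 fold change was 0.17 (95% interval 0.03 to 0.31, adjusted p = 0.0668 from limma), and it passed under 7 of 23 alternatives, among them all 4 rescalings of the libraries (adjusted p from 0.0183 to 0.039). Of the genes of nucleotide supply, the ribonucleotide reductase subunit Rrm1 was at 10.2 ± 0.838 and 9.21 ± 0.478 FPKM, its partner Rrm2 at 1.66 ± 0.342 and 1.9 ± 0.274 FPKM, and the thymidylate synthase gene Tyms at 11.6 ± 1.14 and 11 ± 2.01 FPKM in FL and KO islets (SD, n = 5). None of these 3 passed (adjusted p from 0.147 to 0.622 from limma). Uhrf1, whose protein brings DNA methylation to newly copied DNA, lay under the filter, between 0.18 and 1.44 FPKM in FL and between 0.527 and 1.04 FPKM in KO islets. The sum of the 14 replication genes was 97.9 to 105 FPKM in FL and 108 to 115 FPKM in KO libraries, without overlap, with means of 102 ± 2.97 and 111 ± 3.09 FPKM (SD, n = 5). Pcna and Mcm2 carried nearly all of this difference: without them the other 12 genes summed to 58 to 63.3 FPKM in FL and 57.1 to 66.2 FPKM in KO libraries, a ratio of 1.01, and the groups overlapped.

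Of the 9 mitosis genes that passed the filter, 1 was called, Racgap1. That is 11.1%, beside 25.5% of all tested genes called in either direction and 9.05% called higher. RACGAP1 is a subunit of centralspindlin, which gathers at the midzone of the dividing cell. The gene (ENSMUSG00000023015.13, matched without the version number) spans chr15:99620496-99651656 on the minus strand, and no other annotated gene overlaps it. It was at 12.4, 10.5, 10.5, 12.9 and 12.2 FPKM in FL libraries and 15.5, 19.3, 16.7, 13.9 and 13 FPKM in KO libraries. The groups did not overlap, although KO 5 was only just above FL 4. The means were 11.7 ± 1.13 and 15.7 ± 2.48 FPKM (SD, n = 5), a ratio of 1.34, and the log2 fold change was 0.39 (95% interval 0.16 to 0.61, adjusted p = 0.0175 from limma). Racgap1 was called under 22 of 23 alternative settings at the same threshold. With the replicate number as a block its adjusted p was 0.0671 (limma).

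Racgap1 stood apart from its partners in level as well. Kif23, which encodes the kinesin of the same complex, was at 0.434 ± 0.124 (FL) and 0.353 ± 0.0492 FPKM (KO), and Ect2, which encodes the exchange factor that centralspindlin recruits, at 1.5 ± 0.327 and 1.56 ± 0.369 FPKM (SD, n = 5). The log2 ratio of Racgap1 to Kif23 within a library was 4.29 to 5.26 in FL and 5.23 to 5.79 in KO islets. Prc1, the bundler of midzone microtubules, was at 2.5, 1.41, 1.59, 1.17 and 1.22 FPKM in FL libraries and 0.943, 1.49, 1.13, 0.844 and 0.663 FPKM in KO libraries. The groups of Prc1 overlapped through KO 2, and its log2 fold change of −0.35 did not pass (adjusted p = 0.121 from limma). With 1 mouse left out it was −0.43 to −0.23, and Prc1 was not called. The kinesin gene Kif20a lay under the filter at 0.485 ± 0.118 and 0.536 ± 0.135 FPKM (SD, n = 5). The summed level of the 5 cytokinesis genes was 13.6 to 18.1 FPKM in FL and 15.7 to 23.7 FPKM in KO libraries, and most of it is Racgap1.

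**Figure D3:**
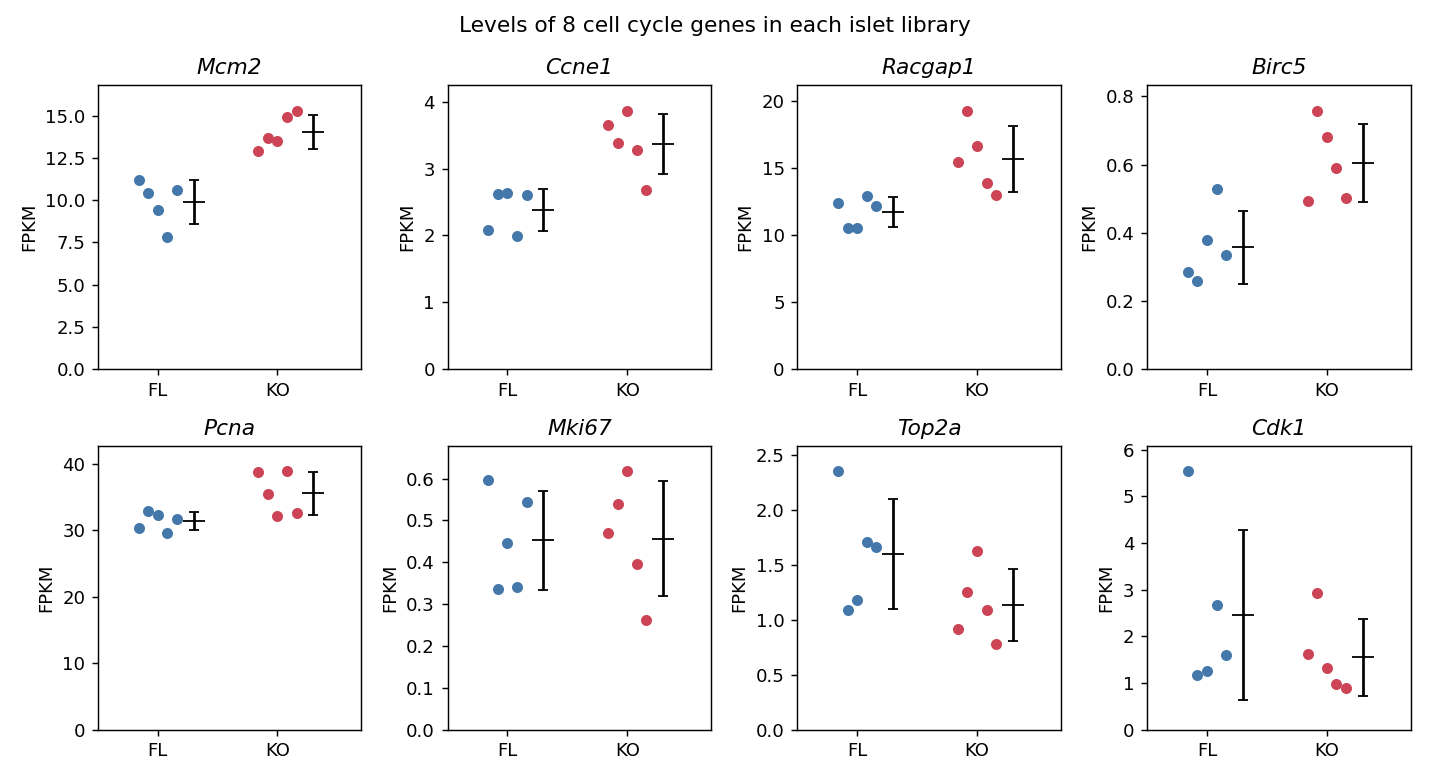
Levels of 8 cell cycle genes, in FPKM, in each of 5 FL (blue) and 5 KO (red) libraries, with the mean and SD of each group as black bars and every axis starting at 0. The groups are apart for Mcm2, Ccne1 and Racgap1 and overlap for Birc5, Pcna, Mki67, Top2a and Cdk1; 1 FL library of Cdk1 is at 5.53 FPKM.

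Mki67, tested in the fit without a filter, and Top2a were not called, and their FL and KO values overlapped. Mki67 was at 0.596, 0.335, 0.446, 0.341 and 0.545 FPKM in FL libraries and 0.47, 0.539, 0.617, 0.395 and 0.261 FPKM in KO libraries. The means were 0.453 ± 0.118 and 0.456 ± 0.137 FPKM (SD, n = 5), and the ranges of both groups covered nearly the same values. On log2(FPKM + 0.1) without a filter, the 95% interval of the log2 fold change of Mki67 was −0.51 to 0.51, so changes of this size in either direction are compatible with these values. Top2a, which encodes the topoisomerase that untangles chromosomes, was at 2.35, 1.09, 1.18, 1.71 and 1.66 FPKM in FL libraries and 0.918, 1.25, 1.63, 1.09 and 0.779 FPKM in KO libraries. Its groups overlapped (log2 fold change −0.28, 95% interval −0.61 to 0.05, adjusted p = 0.202 from limma). With 1 mouse left out the log2 fold change of Top2a was −0.36 to −0.18, and it was not called. Of the other chromosome and spindle genes, the tested centromeric histone gene Cenpa was at 1.47 ± 0.681 and 1.29 ± 0.405 FPKM (SD, n = 5). The other 7, which are Mki67, Birc5, the centromere genes Cenpe and Cenpf, the kinesin gene Kif11 and the spindle genes Tpx2 and Nusap1, lay under the filter, with group means from 0.199 (Cenpf in FL) to 0.703 FPKM (Tpx2 in KO).

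Among the mitotic regulators no gene passed limma, and 4 of 12 were tested, Cdk1, Aurka, Bub1b and Ube2c. Cdk1, the kinase that drives mitosis, was at 5.53, 1.18, 1.26, 2.67 and 1.6 FPKM in FL libraries and 1.63, 2.93, 1.32, 0.98 and 0.903 FPKM in KO libraries. FL 1 was the highest library, and the other FL libraries lay within the KO range. The log2 fold change of Cdk1 was −0.35 (95% interval −1.03 to 0.32, adjusted p = 0.437 from limma); it was −0.09 without FL 1 and −0.52 to −0.09 over all fits with 1 mouse left out. Ccnb1, the cyclin partner of CDK1, lay under the filter at 0.385, 0.32, 0.409, 0.408 and 0.241 FPKM in FL libraries and 0.247, 0.183, 0.291, 0.309 and 0.2 FPKM in KO libraries. FL 2 was just above the highest KO library and FL 5 within the KO range, and the exact permutation test gave p = 0.0397 (two-sided, unadjusted), with an adjusted p of 0.119 from limma without a filter, and of 0.042 when FL 5 was left out. Ube2c, the ubiquitin-conjugating enzyme of the anaphase-promoting complex, was at 3.9 FPKM in FL 1 and at 1.03 to 1.71 FPKM in the other FL libraries, against 1.03 to 2.06 FPKM in KO islets. The Aurora kinase gene Aurka was at 1.69 ± 0.15 and 1.78 ± 0.317 FPKM (SD, n = 5). The regulators under the filter were Ccna2, Ccnb1, Ccnb2, Aurkb, Plk1, Bub1, Cdc20 and Foxm1, a transcription factor of G2 and M phase genes, with group means from 0.158 (Bub1 in KO) to 0.971 FPKM (Cdc20 in FL).

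The 19 genes under the filter were tested in a fit of limma without a filter over 24792 genes, where 12.6% of all genes and 3.64% of the genes under the filter were called. Of the 19, Birc5 was called. Birc5 encodes survivin, a subunit of the chromosomal passenger complex, and spans chr11:117849251-117855743 on the plus strand. It was at 0.286, 0.258, 0.378, 0.528 and 0.334 FPKM in FL libraries and 0.493, 0.758, 0.68, 0.589 and 0.502 FPKM in KO libraries. All KO values but those of KO 1 and KO 5 were above every FL value. The means were 0.357 ± 0.106 and 0.605 ± 0.114 FPKM (SD, n = 5), and the log2 fold change was 0.24 (95% interval 0.10 to 0.39, adjusted p = 0.0367 from limma). Each value rests on about 6 to 30 reads, and Birc5 was called under 9 of 21 alternatives; leaving out FL 1, FL 2, FL 3, FL 5, KO 2, KO 3 or KO 4 gave adjusted p from 0.0667 to 0.0805. Aurkb, the kinase of the same complex, was at 0.281 ± 0.108 and 0.409 ± 0.0788 FPKM, and the Polo kinase gene Plk1 at 0.265 ± 0.123 and 0.411 ± 0.0891 FPKM (SD, n = 5), neither of which passed limma (adjusted p = 0.199 for both). None of the 19 was without overlap between the groups, beside 3.21% of all genes under the filter.

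**Figure D4:**
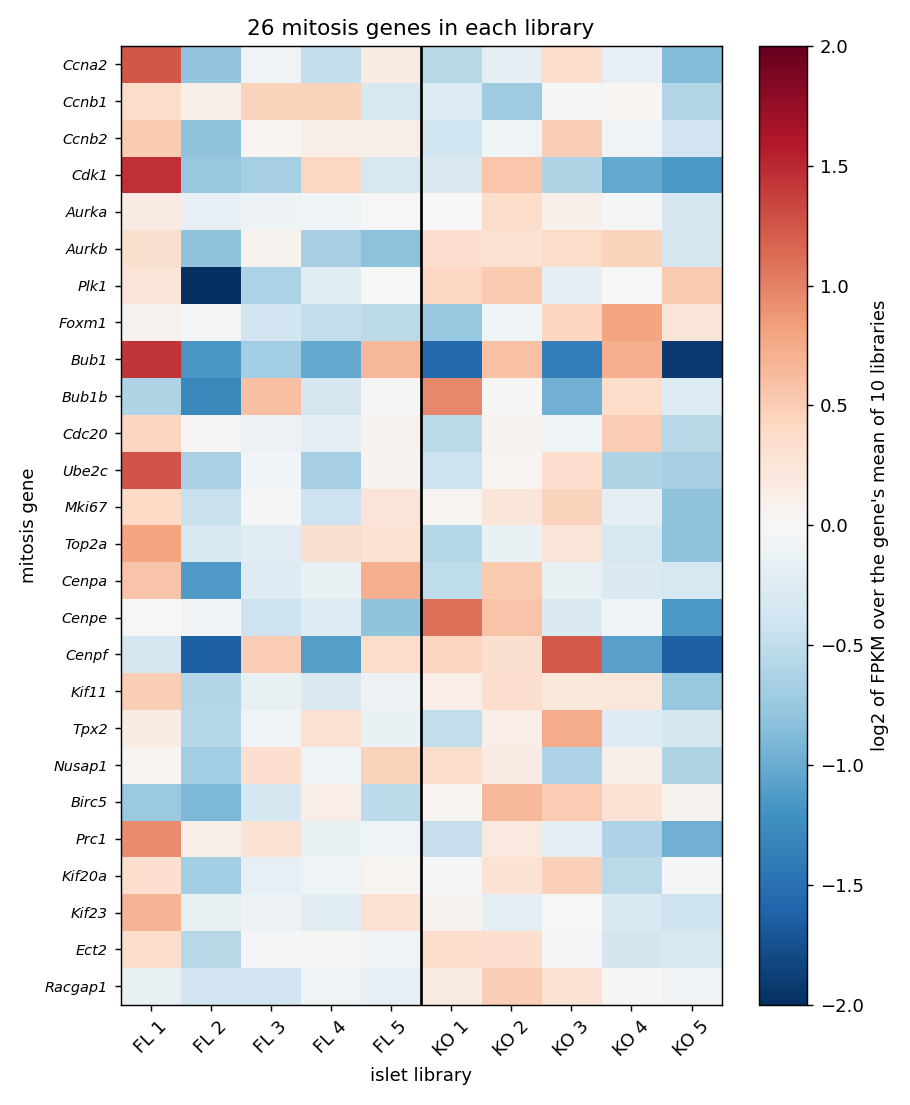
The 26 mitosis genes in each of the 10 libraries, as log2 of FPKM over the mean of that gene; red is above and blue below the mean of the gene, and the black line separates FL from KO. FL 1 is the highest FL library in 18 of 26 rows, and Racgap1, in the last row, is below its mean in FL and mostly above it in KO libraries.

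Mitosis genes were high together in FL 1. It had the highest FL value in 18 of the 26 and the highest value of all 10 libraries in 10 of the 26, among them Cdk1, Ube2c, Ccna2, Bub1, Top2a and Prc1. FL 2, FL 4 and KO 5 had the highest value in 0 of the 26. The summed level of the 12 mitotic regulators was 17.6 FPKM in FL 1, 7.07 to 9.59 FPKM in the other FL libraries and 7.21 to 11.7 FPKM in KO libraries. Over all 26 mitosis genes the ratio of KO to FL means was 1.07 (32 ± 6.92 FPKM in FL, 34.3 ± 5.88 FPKM in KO; SD, n = 5) and 1.17 without FL 1 (29.3 ± 3.6 FPKM in FL; SD, n = 4). Racgap1 carried that ratio: the other 25 mitosis genes summed to 20.3 ± 6.27 FPKM in FL and 18.7 ± 3.46 FPKM in KO libraries (SD, n = 5), a ratio of 0.917, or 1.05 without FL 1. FL 1 is also the shallowest library, and the part of depth in these values was not tested. In the replication genes FL 1 had the highest FL value in 6 of 14 and the highest value of all libraries in 1 of 14. Without FL 1 the number of members called higher was 4, with Mcm3 in addition, and the number called lower was 0.

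Markers of some other islet cell types differed between the genotypes and those of others overlapped. Of all tested genes 9.05% were called higher and 16.5% lower, shares that move with the scaling, and the counts of markers are read beside these. The summed level of 10 macrophage markers was 142 to 168 FPKM in FL and 202 to 242 FPKM in KO libraries, with 4 of 8 tested markers higher (such as Lyz2) and 0 lower, and C1qa, the most abundant, at 74.7 ± 5.17 and 91.8 ± 14.9 FPKM (SD, n = 5; adjusted p = 0.055 from limma). That of 8 mesenchymal markers was 18.4 to 27.1 and 34.9 to 44.3 FPKM, with 6 of 6 tested markers higher (such as Col3a1 and Rgs5). That of 8 endothelial markers was 174 to 205 and 198 to 261 FPKM, with 3 of 8 tested markers higher (such as Plvap, while Emcn was not called). The sum of 10 β cell markers was 2273 to 2844 FPKM in FL and 1511 to 2124 FPKM in KO libraries, with 6 of 7 tested markers lower (such as Ucn3, while G6pc2 was not called); the defining genes Ins1, Ins2 and Iapp are listed at 0 in all libraries, as is the α cell gene Gcg. A listed 0 in FPKM can be a failed estimate, so these 0 values are not read as absence, and the β and α cell sums hold only the other markers. The sum of 8 lymphocyte markers, nearly all of it Cd79a, was 2.73 to 5.06 and 1.46 to 2.51 FPKM, with Cd3d listed at 0 in all libraries. Acinar markers summed to 2502 to 10097 FPKM in all libraries but KO 5, which was at 18716 FPKM. The sum of 7 α cell markers was 505 to 733 and 359 to 495 FPKM, with 2 of 6 tested markers lower (such as Ttr). The sum of 7 duct markers was 889 to 1092 FPKM in FL and 831 to 1132 FPKM in KO libraries. The ratio of their means was 1. Of the 6 tested duct markers, Cftr was higher, at 0.0372 ± 0.0177 and 2.13 ± 0.315 FPKM (SD, n = 5). Cftr passed the filter through its KO mean alone. Krt7 was lower, at 451 ± 34.9 and 356 ± 26 FPKM (SD, n = 5). Both genes were named after their values were seen. The sum of 3 δ cell markers was 4958 to 5850 and 3991 to 5337 FPKM, with 1 of 3 tested markers lower (Sst). The duct, δ cell, endothelial and acinar sums overlapped between FL and KO. Macrophage and mesenchymal sums, higher in KO, and β cell, α cell and lymphocyte sums, lower in KO, did not overlap between FL and KO, and their part in the change of Mcm2, Ccne1 and Racgap1 was not tested. In RNA of whole islets fewer cells of a type and less RNA per cell cannot be told apart. The paper saw no clear difference in islet composition or insulin content between βFIT2KO and floxed mice.

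Beyond the 40 genes, 171 further genes of the cell cycle, listed by function, were examined in the same fit. Of these 112 were tested, 4 rose and 11 fell in KO islets, which is 13.4% of those tested, beside 25.5% of all tested genes. Their median log2 fold change was −0.03, beside −0.06 for all tested genes. Of 43 further replication genes 36 were tested and 1 was called, Orc6 of the origin recognition complex, at 8.73 ± 0.258 (FL) and 10.2 ± 0.793 FPKM (KO; SD, n = 5; adjusted p = 0.0223 from limma). Orc1 of the same complex was at 5.85 FPKM in FL 1 and at 0.0398 to 0.324 FPKM in the other 9 libraries, and Rfc5, a subunit of the PCNA loader, was at 5.74 ± 0.56 and 4.51 ± 1.06 FPKM (SD, n = 5; adjusted p = 0.111 from limma).

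Of 19 genes of the E2F, RB and MuvB families, which switch cell cycle promoters on and off, 16 were tested, 1 rose and 2 fell, which is 18.8% called, beside 25.5% of all tested genes. E2f1, an activator of S phase genes, rose from 5.7 ± 0.21 to 7.01 ± 0.584 FPKM (SD, n = 5; log2 fold change 0.26, adjusted p = 0.00975 from limma). E2f5, a repressor E2F, fell from 11.7 ± 0.675 to 9.71 ± 0.682 FPKM, and Lin52, a subunit of MuvB, fell from 8.65 ± 0.439 to 7.12 ± 0.735 FPKM (SD, n = 5; adjusted p = 0.0112 and 0.0191 from limma). Every KO library was above every FL library for E2f1, as in 6.67% of all tested genes, and below for E2f5 and Lin52, as in 12.5%. E2f3 and Rb1 were not called.

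Of 37 kinetochore genes 20 were tested and 2 fell (10%, beside 16.5% of all tested genes called lower), Mis12, from 21 ± 2.02 to 15.3 ± 1.26 FPKM, and the checkpoint gene Bub3, from 56.8 ± 1.52 to 51.5 ± 2.52 FPKM (SD, n = 5; adjusted p = 0.0021 and 0.0416 from limma). Of 56 further spindle, condensin and mitotic genes 24 were tested, 2 rose and 5 fell, which is 29.2% called, beside 25.5% of all tested genes. Smc2, the condensin ATPase, rose from 2.43 ± 0.297 to 4.05 ± 0.75 FPKM, while the lamin gene Lmnb1 fell from 6.63 ± 0.401 to 5.14 ± 0.298 FPKM and the phosphatase gene Cdc25b from 2.81 ± 0.279 to 1.9 ± 0.128 FPKM (SD, n = 5; adjusted p = 0.0037, 0.00223 and 0.00281 from limma). Of 16 subunits and partners of the anaphase-promoting complex, all 16 were tested and 2 fell (12.5%, beside 16.5% of all tested genes called lower), Anapc13 (201 ± 10.5 to 173 ± 18.5 FPKM) and Anapc11 (48 ± 4.74 to 40.7 ± 3.2 FPKM; SD, n = 5; adjusted p = 0.0426 and 0.0437 from limma). The balance of these calls moved with the scaling, from 4 higher and 11 lower to 9 and 5 with median-ratio scaling and 12 and 3 with upper-quartile scaling. Over all tested genes it moved from 1183 higher and 2150 lower to 1651 and 1485, and to 1999 and 899.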

How the data were processed

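Poly(A) RNA of islets of 5 FL and 5 KO mice was sequenced from a single end over 75 nt with a stranded protocol. The deposited values are FPKM made by the authors, in a single table that lists each mouse separately. The submitters' processing notes name STAR 2.5.2a, Cuffnorm 2.2.1 and the build mm10 (GRCm38); the scaling used and whether reads were counted by strand are not given in the sources used here. Total counts are unknown. Reads per gene were estimated as FPKM times the length of the principal transcript (GENCODE M21) over the step of 1 read; 72.3% to 88.3% of low values lay within 0.1 of a whole number of steps.

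FL and KO were compared with limma 3.58.1 (R 4.3.3; eBayes with a trend) on log2(FPKM + 1) without covariates, with Benjamini-Hochberg adjustment, and single genes with an exact two-sided permutation test over 252 splits (smallest p 0.00794). In simulated data, 78 of 100 genes changed by 0.5 (log2) and 95 of 100 changed by 1 were called. The changed genes were drawn from better expressed ones, so weakly expressed members and smaller changes were not covered. Summaries used Python 3.11.15, pandas 2.3.3 and scipy 1.17.1. The 40 genes and all lists were chosen with earlier results of these data known. By rule, values in every library are given for called genes and for Mki67, Top2a, Cdk1, Ccnb1, Pcna and Mcm2, and other members by range and count; further values of single members, such as Birc5, Mcm3 and Prc1, were added after they had been seen. Of each further list up to 3 called genes of lowest adjusted p and up to 2 others with the largest fold change are named, and of each marker list up to 2 of the most abundant genes and those listed at 0. Alternatives were other pseudocounts (0.1, 0.01), filters, scalings, variance models, a replicate block, thresholds, an exact Wilcoxon test and leaving out each mouse. Counts of alternatives under which a gene was called cover the refits at an adjusted p of at most 0.05. They leave out the other thresholds and the Wilcoxon test.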

Additional observations from a re-analysis of the deposited data

Results flagged for a closer look

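In groups of 5, a library was marked where its gap to the nearest other library exceeded 0.71 of the whole range of the group. This held in 7 of 80 groups (40 genes in FL and KO), where chance gives about 4. FL 1 was high for Mcm5 (1.58 FPKM, next 1.36, gap over range 0.808) and for Ube2c (3.9 FPKM, next 1.71, gap over range 0.762). KO 2 was high for Mcm7 (9.19 FPKM, next 7.92, 0.826) and for Cenpa (1.99 FPKM, next 1.25, 0.725). KO 4 was high for Tk1 (0.297 FPKM, next 0.12, 0.729). KO 5 was low for Aurkb (0.27 FPKM, next 0.427, 0.79) and for Kif11, a spindle kinesin (0.188 FPKM, next 0.35, 0.753). None of these 7 genes was called. Of 10 groups of summed levels 1 was marked, the 12 mitotic regulators in FL, with FL 1 at 17.6 FPKM and the next FL library at 9.59 FPKM (0.76).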

How the results depend on the processing

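At an adjusted p of at most 0.05, Mcm2 and Ccne1 were called under all 23 alternatives and Racgap1 under 22, the exception being the replicate block (adjusted p = 0.0671 from limma). Fitm2 was called under all 23, at log2 fold changes from −1.72 to −1.39. Of the 40 genes, 5 were called higher with sample weights and 5 with upper-quartile scaling (11% and 15.3% of all tested genes were, beside 9.05% in the reported fit), 1 at an adjusted p of at most 0.01 and 0 where the change also had to reach 1.5-fold; leaving out 1 mouse gave 3 to 4. Called lower was 1 with sample weights (Ccne2; 21.7% of all tested genes were), and leaving out 1 mouse gave 0 to 1 (Ccne2 without KO 3). In the fit without a filter Ccnb1 was called lower without FL 5 (adjusted p = 0.042 from limma) and under none of its other 20 alternatives with an adjusted p. Same-numbered FL and KO libraries did not deviate together (correlations −0.102 to 0.00305), so the numbers were not read as pairs; the replicate block left 2 members higher and 0 lower. Of the further cell cycle genes, 9 were higher with median-ratio scaling, 7 with quantile normalization, 12 with upper-quartile scaling and 2 with the replicate block. Over all tested genes 1651, 1515, 1999 and 874 were higher under these settings, beside 1183 in the reported fit. Of the further genes 7 were lower with TPM, 5 with median-ratio and 3 with upper-quartile scaling. Over all tested genes 1528, 1485 and 899 were lower there, beside 2150 in the reported fit. Leaving out 1 mouse gave 2 to 6 of the further genes higher and 7 to 10 lower. The summed replication genes had a ratio of KO to FL of 1.13 with median-ratio, 1.18 with upper-quartile and 1.12 with TPM scaling, and 1.01 without Pcna and Mcm2, a setting added after seeing the data. The cause of the shifts with scaling was not tested.

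Members near 0 that were not called changed sign. Mki67 had log2 fold changes of −0.0017 (sample weights), −0.01 (pseudocount 0.01), −0.0024 (pseudocount 0.1) and −0.04 (quantile normalization), and −0.04 to 0.05 with 1 mouse left out. Ccnb2 was at 0.0037 with upper-quartile scaling, Aurka at −0.01 and Ect2 at −0.02 with quantile normalization, Tpx2 at −0.03 with quantile normalization and Tyms at 0.03 with upper-quartile scaling. Mcm4 was at 0.02 with TPM, 0.03 with median-ratio, 0.02 with quantile and 0.08 with upper-quartile scaling, and Mcm6 at 0.04, 0.06, 0.05 and 0.11. Medians differed in sign from the fit for Nusap1 (0.0155 FPKM), Tpx2 (−0.088 FPKM), Mcm6 (0.168 FPKM) and Ect2 (−0.0104 FPKM). Leaving out 1 mouse gave log2 fold changes of −0.02 to 0.10 for Aurka, −0.12 to 0.01 for Bub1, −0.18 to 0.01 for Ccna2, −0.09 to 0.01 for Ccnb2, −0.22 to 0.03 for Cenpa, −0.0026 to 0.13 for Cenpf, −0.04 to 0.09 for Ect2, −0.05 to 0.0032 for Mcm4, −0.05 to 0.06 for Mcm6, −0.02 to 0.06 for Tk1, −0.07 to 0.06 for Tpx2 and −0.28 to 0.04 for Ube2c. Depth limits genes such as Tk1, Birc5 and Bub1, at up to about 15, 30 and 54 reads a library.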
